A study of Mus musculus with 3 samples.

Results

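Serpins that restrain granule proteases were described here through 6 genes, *Serpinb9*, *Serpinb9b*, *Serpinb6b*, *Serpinb6a*, *Serpina3g* and *Serpinb1a*, out of the 32285 genes in the count tables. They were chosen by symbol, and all 6 were found in the annotation by identifier. Single-cell RNA sequencing had been carried out on tumor-infiltrating lymphocytes (TILs) from subcutaneous MC38-Ova tumors in wild-type C57BL/6 Kaede mice treated with an isotype control. The labels name MC38-Ova, a colon carcinoma line that carries ovalbumin, and the isotype treatment. The study's text names the parent line MC38 for this experiment and lists both lines in its methods. Kaede is a green protein that violet light turns red. Tumors grew from 250000 injected cells, were photoconverted on day 13 and were taken on day 15. Kaede-green (KG+) cells, which entered after photoconversion, made 2 libraries (Kaede-green 1 and Kaede-green 2), and Kaede-red (KR+) cells, which were already in the tumor, made 1 library (Kaede-red). The study's text gives an age range for experimental mice across the whole project. The age and number of the mice behind each library were not given in the sources used here. All 3 libraries share the strain, the tumor line and the isotype treatment.

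Granzymes are serine proteases that cytotoxic lymphocytes store in granules and release with perforin into target cells. Serpins are suicide inhibitors: the protease cleaves a reactive loop and stays bound to the serpin. Clade B serpins act inside cells, where they can neutralize granule protease that leaks into the cytosol of the killer cell itself. *Serpinb9* encodes the inhibitor of granzyme B and *Serpinb9b* its close paralog. *Serpinb6b* encodes an inhibitor of mouse granzyme A, and *Serpinb6a* an inhibitor of cathepsin G and of trypsin-like proteases. *Serpina3g* (Spi2A) encodes an inhibitor of lysosomal cathepsins, and *Serpinb1a* an inhibitor of neutrophil elastase, cathepsin G and proteinase 3.

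The deposited tables hold 10498, 12327 and 11956 cell barcodes with 87193225, 129438292 and 175848894 UMIs (unique molecular identifiers) in Kaede-green 1, Kaede-green 2 and Kaede-red. The libraries shared 20 to 36 barcodes pairwise. After filtering, 31943 cells remained, and the median kept cell held 6628, 8512.5 and 12076 UMIs, so Kaede-red was the deepest library. Cells were gated by raw UMIs. NK cells (at least 1 *Ncr1*, at most 1 *Cd3e*) numbered 2603, 2659 and 3169. CD8 T cells (at least 2 *Cd3e*, 1 *Cd8a* and 1 *Cd8b1*) numbered 2353, 3262 and 4085. Treg (at least 2 *Cd3e*, 1 *Foxp3*) numbered 388, 709 and 705, and pDC (at least 2 *Siglech*, at most 1 *Cd3e*) 117, 187 and 75. The summed level of 7 NK markers was 4246 to 5203 CPM (a gene's share of the summed UMIs, scaled to counts per 1e6 UMIs) in NK cells, where 5 CD8 T markers summed to 70.1 to 173 CPM, and the CD8 T, Treg and pDC markers were highest in their own gates. pDC also held 4292 to 4820 CPM of the NK list, most of it *Tyrobp*, which pDC express. Of the 31943 cells, 495 met more than 1 gate and were left out.

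*Serpinb9* was the most abundant of the 6 in NK cells and stepped down from NK cells to CD8 T cells, Treg and pDC. A level here is the CPM of a group's pooled UMIs in 1 library. In NK cells *Serpinb9* stood at 977, 843 and 625 CPM in Kaede-green 1, Kaede-green 2 and Kaede-red. CD8 T cells had 302, 375 and 414 CPM, Treg 125, 147 and 161 CPM, and pDC 31.7, 62.8 and 64.2 CPM. With NK cells divided by *Gzmd* (0 or at least 3 UMIs) and CD8 T cells by *Havcr2* (0 or at least 1 UMI), the ranges of neighboring groups in this order did not overlap at any step. The mean ± SD over the 3 libraries was 856 ± 148 CPM in *Gzmd*-negative NK cells and 52.9 ± 18.4 CPM in pDC.

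The granzyme A inhibitor *Serpinb6b* followed almost the same order at a lower level. It stood at 608, 579 and 420 CPM in NK cells, 244, 297 and 310 CPM in CD8 T cells, and 132, 144 and 140 CPM in Treg. In pDC it stood at 43.5, 56.1 and 154 CPM, and the Kaede-red value there was more than either KG+ library had. The ranges of the NK groups overlapped each other, as did those of Treg and pDC.

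*Serpinb9b* was much scarcer and was nearly confined to NK and CD8 T cells among these groups. NK cells had 94.4, 77.9 and 55.6 CPM and CD8 T cells 22.02, 35.9 and 74.4 CPM, so the order of the libraries was opposite in these cell types. In Treg it fell to 5.08, 3.57 and 4.08 CPM, and in pDC it was 0, 3.80 and 1.83 CPM, the first from 0 UMIs in 117 cells. *Gzmd*-high NK cells, *Gzmd*-negative NK cells and *Havcr2*-positive CD8 T cells, at means of 81.4 ± 14.2, 75.0 ± 21.3 and 67.5 ± 23.5 CPM (SD, n = 3), overlapped. The top cell held 33.8%, 24.2% and 4.87% of the *Serpinb9b* UMIs in *Gzmd*-high NK cells.

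*Serpinb6a* had another order. It was highest in *Havcr2*-positive CD8 T cells at 91.5, 99.3 and 115 CPM, and *Havcr2*-negative CD8 T cells had 44.0, 56.1 and 81.5 CPM. Treg had 41.9, 59.0 and 71.4 CPM, which overlapped *Havcr2*-negative CD8 T cells and *Gzmd*-high NK cells. NK cells as a whole had 17.7, 19.8 and 38.7 CPM, and pDC 7.38, 9.70 and 13.7 CPM.

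*Serpina3g* differed least between lymphocytes, with 225, 183 and 211 CPM in NK cells, 131, 124 and 180 CPM in CD8 T cells and 114, 108 and 164 CPM in Treg. pDC stood apart at 16.2, 10.97 and 12.8 CPM. B cells, gated by *Cd79a* and *Ms4a1* (167, 105 and 3 cells), had 174, 172 and 195 CPM. *Serpinb1a* was near the floor in every main group, from 3.60 CPM in NK cells of Kaede-red to 14.6 CPM in Treg of Kaede-green 1, and all its neighboring ranges overlapped.

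**Figure D1:**
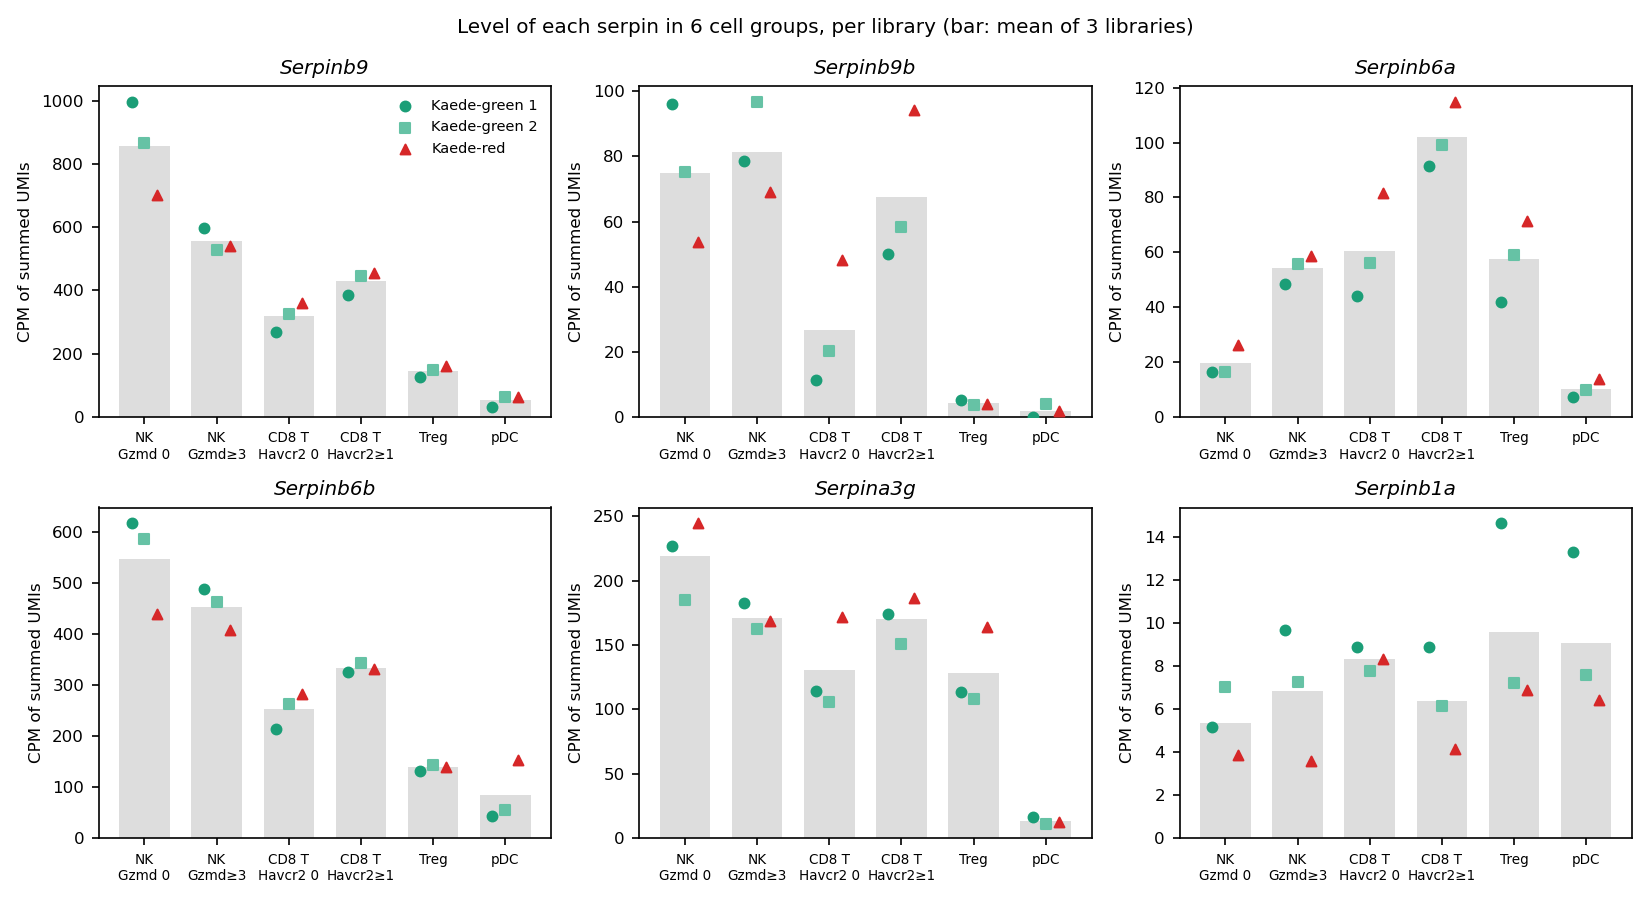
Level of the 6 serpins (CPM of summed UMIs, linear axes from 0) in 6 cell groups, with 1 point per library (circle Kaede-green 1, square Kaede-green 2, triangle Kaede-red) and a bar for the mean of 3 libraries. *Serpinb9* steps down from 856 CPM in *Gzmd*-negative NK cells to 52.9 CPM in pDC, while *Serpinb6a* peaks in *Havcr2*-positive CD8 T cells at 102 CPM.

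Detection per cell was read after thinning every cell of at least 3000 UMIs to 3000 UMIs. *Serpinb9* was then detected in 86.7%, 85.1% and 77.7% of NK cells and in 42.6%, 54.0% and 58.7% of CD8 T cells. In B cells, which lack granzyme granules, it was detected in 7.14% and 13.5% of thinned cells of the KG+ libraries, and the unthinned shares were 95.4% to 96.9% in NK cells (median 6124 to 17234 UMIs) against 10.2% and 28.6% in B cells (median 4081 and 4954 UMIs). *Serpinb6b* was detected in 69.6%, 68.4% and 63.0% of thinned NK cells against 5.84% and 11.5% of thinned B cells. *Serpinb9b* was detected in 12.9%, 11.1% and 8.40% of thinned NK cells and in 1.89%, 4.27% and 7.54% of thinned CD8 T cells, against 0.649% and 0.962% of thinned B cells. *Serpinb6a* was detected in 4.15% and 4.73% of thinned NK cells of the KG+ libraries against 2.60% and 5.77% of thinned B cells (exact 95% Clopper-Pearson intervals 0.712% to 6.52% and 2.15% to 12.1%, which cover counting error only), so it was not above the level in B cells there. *Serpina3g* was detected in 25.2% and 24.8% of thinned CD8 T cells and 24.0% and 26.9% of thinned B cells of the same libraries, and *Serpinb1a* in 35.1% and 34.6% of those B cells. A thinned NK cell held 2.16, 2.06 and 2.03 of the 6 serpins on average and a CD8 T cell 1.21, 1.45 and 1.74.

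Of the 6 genes, 5 lie on mouse chromosome 13 (GRCm38, GENCODE), in a cluster of 15 *Serpinb* genes of which 6 had 0 UMIs in NK and CD8 T cells. *Serpinb6b* (chr13:32965209-32979067, plus strand), *Serpinb9* (chr13:33003250-33017957, plus strand) and *Serpinb9b* (chr13:33027416-33041884, plus strand) sit side by side within 76.7 kb. *Serpinb1a* (chr13:32842092-32851185, minus strand) lies before them, and *Serpinb6a* (chr13:33917918-34002794, minus strand) lies 876 kb beyond *Serpinb9b*. *Serpina3g* is on chromosome 12 (chr12:104236245-104241939, plus strand). An antisense gene overlaps *Serpinb9b*, and *Nqo2*, *Ripk1* and 1110046J04Rik overlap *Serpinb6a* on the opposite strand. Whether the counting kept the strands apart is not given in the sources used here. No 90-base window in the last 1000 bases of the transcripts of the 5 *Serpinb* genes recurred in another gene. For *Serpina3g* 112 of 2040 such windows (5.49%) did, mostly in *Serpina3h* and *Serpina3i*, so its counts are less certain.

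Some neighbors in the genome had similar patterns across the cell groups, at different levels. Over 18 sums (6 cell groups in 3 libraries, which share libraries and depth) the Pearson correlation of log2(CPM + 1) was 0.967 between *Serpinb9* and *Serpinb6b* and 0.952 between *Serpinb9* and *Serpinb9b*. *Serpinb6a* correlated with the other members at 0.420 to 0.671. High correlations were not particular to neighbors. *Serpinb9* correlated at 0.874 with *Serpina3g* on chromosome 12 and at 0.944 with the perforin gene *Prf1*, and *Serpinb9b* with *Prf1* at 0.946. Among 7224 genes with a mean of at least 10 CPM, those most like *Serpinb9* were *Qrfp* (0.982), *Klre1* (0.979) and *Styk1* (0.976), and those most like *Serpinb9b* were *Styk1* (0.971), *Klre1* (0.959) and *Dapk2* (0.957). *Klre1* encodes an NK receptor. *Serpinb6b* was most like *Serpinb9* itself, then *Styk1* (0.949) and *Dock5* (0.948). *Serpinb6a* was most like *Igflr1* (0.970), *Mt2* (0.962) and *Kif15* (0.959), and *Serpina3g* most like *Cd52* (0.981), *Pld3* (0.977) and *Lasp1* (0.975). *Serpinb1a* was under the 10 CPM minimum.

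Promoters of *Serpinb9* and *Serpinb9b*, a pair with similar patterns across groups, and of *Serpinb6a*, whose order differs, are shown because they are the members whose patterns are set against each other below. Each is the 250 bases before the transcription start in RefSeq (GRCm38.p6), read 5′ to 3′ on the gene's strand: chr13:33004291-33004540 (plus) for *Serpinb9*, chr13:33027164-33027413 (plus) for *Serpinb9b* and chr13:34002795-34003044 (minus) for the outermost start of *Serpinb6a*. The *Serpinb9* window lies inside the GENCODE span of that gene, which starts earlier, at chr13:33003250. Capitals mark matches to the interferon-type motif (GAAA, any 2 bases, GAAA), read on the reverse strand, and, in *Serpinb6a*, to the STAT-type motif TTCNNNGAA that overlaps it.
Serpinb9: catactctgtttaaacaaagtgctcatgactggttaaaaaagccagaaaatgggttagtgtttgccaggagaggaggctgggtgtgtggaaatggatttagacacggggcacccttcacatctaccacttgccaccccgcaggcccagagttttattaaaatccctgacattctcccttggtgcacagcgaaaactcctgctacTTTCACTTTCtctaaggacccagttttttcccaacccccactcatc
Serpinb9b: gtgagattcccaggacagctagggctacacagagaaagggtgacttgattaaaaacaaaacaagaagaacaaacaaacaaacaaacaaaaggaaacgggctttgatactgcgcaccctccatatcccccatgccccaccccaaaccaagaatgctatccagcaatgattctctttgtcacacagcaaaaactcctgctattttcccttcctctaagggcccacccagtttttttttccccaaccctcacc
Serpinb6a: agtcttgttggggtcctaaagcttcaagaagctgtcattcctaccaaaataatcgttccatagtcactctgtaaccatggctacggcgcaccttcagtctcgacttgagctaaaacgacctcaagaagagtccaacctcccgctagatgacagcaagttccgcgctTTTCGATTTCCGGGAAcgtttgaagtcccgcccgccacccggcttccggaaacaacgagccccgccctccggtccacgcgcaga

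Aligned end to end, the *Serpinb9* and *Serpinb9b* windows were identical in 145 of 260 columns (55.8%), against 41.4% to 48.9% for the other pairs of different members. A further start of *Serpinb6a* was included, and its window was 51.3% identical to that of the outermost start. *Serpinb1a* had no promoter among them. The interferon-type motif lay 46 to 37 bases before the start of *Serpinb9* and 84 to 75 bases before that of *Serpinb6a*, and none of 6 motifs searched on both strands matched the *Serpinb9b* window. The motifs were chosen after the promoters had been seen. The interferon-type motif occurs in 2.98% of 32851 promoters of this length and TTCNNNGAA in 7.02%. The other 4 were the AP-1-type TGANTCA (6.75%), the NF-κB-type motif of GGG, any 2 bases and TTTCC (1.41%), the RUNX-type TGTGGT (14.0%) and the T-box-type GGTGTGA (3.33%). A match in letters is not evidence of binding.

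Cell types were compared within libraries with edgeR's quasi-likelihood test on the summed UMIs, with the library as a block and Benjamini-Hochberg adjustment over all genes tested, and log2 differences are given ± SE (n = 3 libraries). The labels call the KG+ libraries biological replicates. NK cells carried more of the inhibitors of granzymes B and A than CD8 T cells, and less *Serpinb6a*. In this comparison 29.6% of all genes tested passed the threshold of 0.05, and 4 of the 6 serpins did, 3 higher and 1 lower in NK cells. *Serpinb9* was 2.32-fold higher in NK cells (log2 difference 1.21 ± 0.18, adjusted p = 0.0063). *Serpinb6b* was 1.95-fold higher (0.97 ± 0.15, adjusted p = 0.0064) and *Serpina3g* 1.5-fold higher (0.58 ± 0.10, adjusted p = 0.0085). *Serpinb6a* was 3.0-fold lower (-1.59 ± 0.13, adjusted p = 0.00092). *Serpinb9b* did not pass (0.97 ± 0.43, adjusted p = 0.151). Its fold was uneven between libraries, since Kaede-red was the only library with more in CD8 T than in NK cells, and without Kaede-red it passed at 1.58 (adjusted p = 0.000101). *Serpinb1a* did not pass (-0.44 ± 0.16, adjusted p = 0.0995).

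Among the granzyme genes, NK cells had more *Gzma* (log2 difference 3.10 ± 0.16, adjusted p = 0.000265) and *Gzmc* (3.03 ± 0.12, adjusted p = 0.000169), and less *Gzmk* (-3.69 ± 0.28, adjusted p = 0.000718) and *Gzmf* (-2.11 ± 0.29, adjusted p = 0.00471) than CD8 T cells. Of 11 granzyme and perforin genes tested, 5 were higher and 2 lower, with a median of 0.96 against 0.01 over all genes. *Gzma* stood at 9227, 7264 and 3203 CPM in NK cells and 881, 1134 and 383 CPM in CD8 T cells, and *Gzmb* at 4978, 4237 and 4085 CPM against 1895, 1995 and 3554 CPM.

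Treg had lower levels of 5 of the serpins than CD8 T cells. Their *Gzmb* stood at 2678, 2684 and 4025 CPM in Treg, a range that overlapped that of CD8 T cells. Of all genes tested, 23.4% passed between Treg and CD8 T cells, and 5 of the 6 serpins did, all lower in Treg. *Serpinb9* was 2.75-fold lower (log2 difference -1.46 ± 0.09, adjusted p = 0.000137), *Serpinb9b* 11-fold lower (-3.45 ± 0.32, adjusted p = 0.000717) and *Serpinb6b* 2.22-fold lower (-1.15 ± 0.10, adjusted p = 0.000437). The last 2 were lower by less, *Serpinb6a* 1.46-fold (-0.55 ± 0.10, adjusted p = 0.0090) and *Serpina3g* 1.24-fold (-0.31 ± 0.09, adjusted p = 0.0473). *Serpinb9b* in Treg rested on 25, 34 and 29 UMIs, of which the top cell held 40%, 26.5% and 17.2%. The *Serpinb9b* difference was -2.20 with cells in several gates kept, -4.49 without the cells of highest doublet score and -2.24 without cycling cells, defined as those with a UMI of *Mki67*, *Top2a* or *Birc5*. Without cycling cells *Serpinb6a* differed by -0.36, and without Kaede-green 1 it no longer passed (adjusted p = 0.0764). *Serpina3g* did not pass without Kaede-green 1 (adjusted p = 0.283), without Kaede-green 2 (adjusted p = 0.318) or without cycling cells (adjusted p = 0.598). *Serpinb1a* did not differ past the threshold (0.19 ± 0.17, adjusted p = 0.474). Of 10 granzyme and perforin genes tested 9 were lower in Treg, among them *Gzmf* (-6.27 ± 0.35), *Gzmk* (-4.35 ± 0.32) and *Gzmm* (-3.40 ± 0.30), and *Gzmb* was the one that did not pass (0.24 ± 0.10, adjusted p = 0.125). Of 10 cathepsins and cystatins tested, 3 were higher in Treg, *Ctsz* (2.88 ± 0.12), *Ctsb* (1.11 ± 0.09) and *Ctss* (0.97 ± 0.14), 1 was lower, *Ctsd* (-0.68 ± 0.09), and 6 did not pass.

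pDC had lower levels of the granzymes and of 5 of the serpins than NK cells. Between pDC and NK cells 44.4% of all genes tested passed, and 5 of the 6 serpins were lower in pDC. The log2 differences were -4.18 ± 0.30 for *Serpinb9*, -5.33 ± 0.42 for *Serpinb9b*, -3.08 ± 0.42 for *Serpinb6b*, -4.18 ± 0.18 for *Serpina3g* and -1.47 ± 0.21 for *Serpinb6a*, with adjusted p-values from 4.95e-06 to 0.000984. The *Serpinb9b* value rested on 11 UMIs in pDC and was -3.16 when cells in several gates were kept, -4.70 without Kaede-green 1 and -6.71 without Kaede-green 2. Without Kaede-red *Serpinb6b* differed by -3.71. In the KG+ libraries the pDC levels of *Serpinb9* (31.7 and 62.8 CPM) were not above those of B cells (80.0 and 69.0 CPM). Those of *Serpinb6b* (43.5 and 56.1 CPM) were not above B cells either (74.9 and 58.8 CPM). *Serpinb1a* did not pass (0.53 ± 0.33, adjusted p = 0.237). All 10 granzyme and perforin genes tested were lower in pDC, while 8 of 10 cathepsins and cystatins were higher, led by *Ctsh* (8.13 ± 0.63) and *Ctsl* (7.44 ± 0.52).

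**Figure D2:**
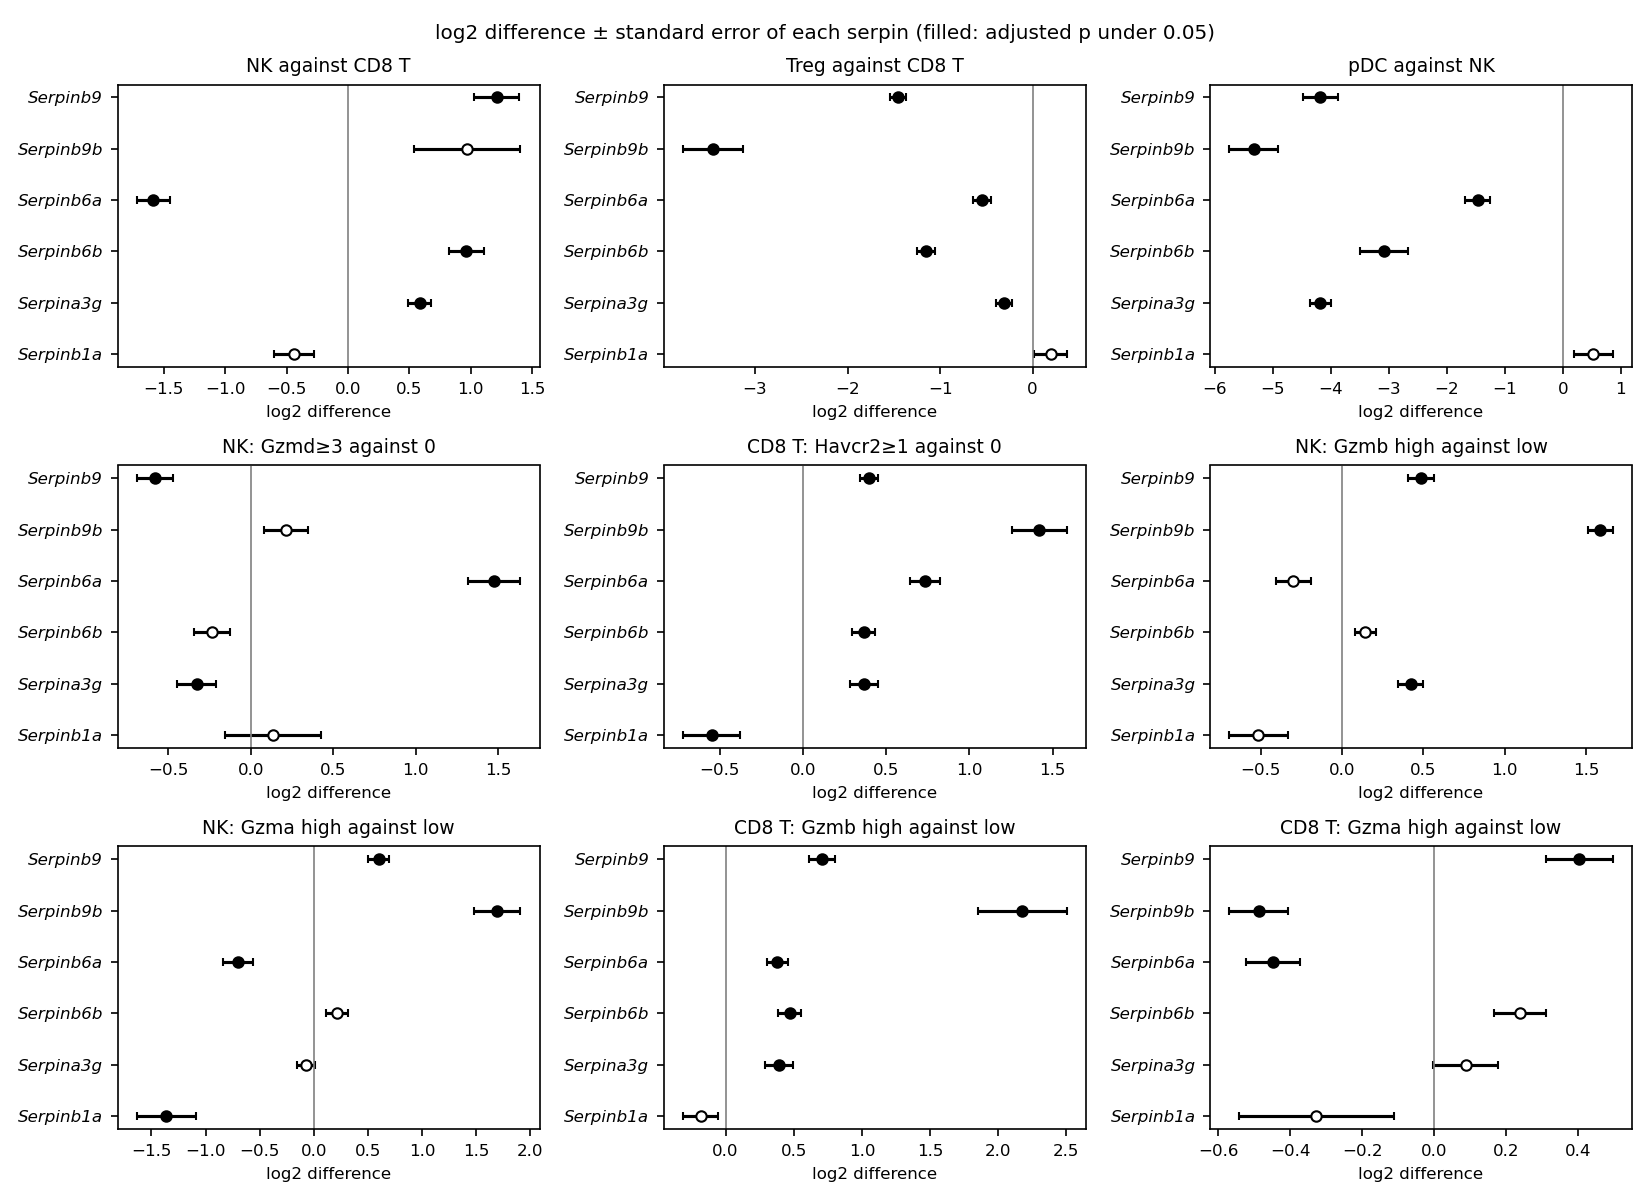
log2 difference ± SE of each serpin in 9 comparisons (3 libraries each; filled points passed an adjusted p of 0.05; horizontal axes differ between panels). *Serpinb9* and *Serpinb6a* lie on opposite sides of 0 between NK and CD8 T cells and between *Gzmd*-high and *Gzmd*-negative NK cells, and *Serpinb9b* has the difference of largest size in all 5 panels by *Gzmb*, *Gzma* or *Havcr2*.

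Within NK cells, those with at least 3 UMIs of *Gzmd* had more *Serpinb6a* and less *Serpinb9* than those with 0. The *Gzmd*-high cells numbered 30, 71 and 719 and the *Gzmd*-negative cells 2539, 2390 and 1761, so most *Gzmd*-high cells were KR+. *Serpinb6a* stood at 48.3, 55.7 and 58.5 CPM in *Gzmd*-high cells against 16.3, 16.4 and 26.4 CPM in *Gzmd*-negative cells, and the groups did not overlap. *Serpinb9* stood at 598, 529 and 542 CPM against 998, 868 and 703 CPM, again with no overlap. Relative to their means, these levels lay closer together across libraries in *Gzmd*-high than in *Gzmd*-negative cells. The SD was 9.69% against 29.3% of the mean for *Serpinb6a* and 6.59% against 17.2% for *Serpinb9*. Only *Serpinb1a* of the 6 went the other way (44.9% against 29.6%). Each SD mixes 2 KG+ libraries with 1 KR+ library, so it is not a spread between replicates. Between the KG+ libraries the log2 ratio of *Serpinb6a* was 0.193 in *Gzmd*-high and 0.00606 in *Gzmd*-negative cells. That of *Serpinb9* was -0.177 and -0.201.

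Of all genes tested 19.8% passed, and of the 6 serpins *Serpinb6a* was higher by 1.48 ± 0.16 on the log2 scale (2.78-fold, adjusted p = 3.07e-09) and *Serpinb9* lower by a difference of -0.58 ± 0.11 (1.5-fold, adjusted p = 0.000128). *Serpina3g* passed as lower (-0.33 ± 0.12, adjusted p = 0.0416) but was lost under 9 alternatives, among them leaving out any library and leaving out cycling cells, where it was -0.10 (adjusted p = 0.721). *Serpinb6b* (-0.23 ± 0.11, adjusted p = 0.135), *Serpinb9b* (0.21 ± 0.13, adjusted p = 0.290) and *Serpinb1a* (0.13 ± 0.29, adjusted p = 0.814) did not pass. *Serpinb6b* passed without Kaede-red (-0.29, adjusted p = 0.00391) and *Serpinb9b* without Kaede-green 1 (0.41, adjusted p = 0.0379). Without Kaede-green 2 *Serpinb9* did not pass (-0.53, adjusted p = 0.0951).

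The *Gzmd*-high cells were much deeper, with a median of 28902.5, 26576 and 30987 UMIs against 6083, 7966 and 12917, and their 4 proliferation markers summed to 453 to 744 CPM against 142 to 565 CPM. A gate of at least 1 *Gzmd* UMI on cells thinned to 3000 UMIs gave 40, 146 and 807 *Gzmd*-high cells. These were still deeper, with a median of 22295, 11663.5 and 27610 UMIs against 6184, 8134 and 14521. With that gate *Serpinb6a* was higher by 1.30 (adjusted p = 0.000292) and *Serpinb9* differed by -0.37 (adjusted p = 0.0285). With the main gate the differences were 1.53 and -0.42 without cycling cells, and 1.51 and -0.60 without the cells of highest doublet score. Other granzymes of the *Gzmd* cluster rose with the main gate, *Gzmg* by 8.35 ± 0.23, *Gzme* by 7.84 ± 0.24, *Gzmn* by 4.52 ± 0.93 and *Gzmf* by 4.51 ± 0.19. Of 10 granzyme and perforin genes tested 6 were higher and 2 lower. The level of *Gzma* was 2812, 2291 and 2450 CPM in *Gzmd*-high cells against 9588, 7732 and 3853 CPM.

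Within CD8 T cells, cells with *Havcr2*, which encodes the inhibitory receptor TIM-3, had more of 5 of the serpins. *Serpinb9b* stood at 49.99, 58.2 and 94.2 CPM in *Havcr2*-positive cells (469, 1115 and 1953 cells) against 11.3, 20.3 and 48.2 CPM in negative cells (1884, 2147 and 2132 cells). It was higher in the positive cells of every library, and the ranges of the groups did not overlap. *Serpinb6a* stood at 91.5, 99.3 and 115 CPM against 44.0, 56.1 and 81.5 CPM, with no overlap.

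Of all genes tested 26.8% passed in this comparison, and all 6 serpins did, 5 higher and 1 lower. The log2 differences were 1.42 ± 0.16 for *Serpinb9b* (adjusted p = 0.000703), 0.74 ± 0.09 for *Serpinb6a* (adjusted p = 0.000932), 0.39 ± 0.05 for *Serpinb9* (adjusted p = 0.0014), 0.36 ± 0.07 for *Serpinb6b* (adjusted p = 0.0058) and 0.36 ± 0.08 for *Serpina3g* (adjusted p = 0.0137). *Serpinb1a* was lower (-0.55 ± 0.17, adjusted p = 0.0441), from 8.89, 6.17 and 4.13 CPM against 8.88, 7.79 and 8.34 CPM, and without Kaede-red it was -0.25 (adjusted p = 0.296). Without Kaede-green 2 *Serpina3g* did not pass (adjusted p = 0.0680), and without cycling cells it was higher by 0.62.

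*Havcr2*-positive cells were deeper, with a median of 12847, 12644 and 17717 UMIs against 8533.5, 9572 and 11328.5. The NK markers summed to 1438, 1504 and 1897 CPM in them against 753, 1003 and 1095 CPM, and the proliferation markers to 629, 750.3 and 1091 CPM against 381, 516 and 924 CPM. The part of the NK markers in the result was not tested. With the gate on thinned cells the positive cells were still deeper, with a median of 10776.5, 11170.5 and 15379 UMIs against 8925, 10425 and 13963. *Serpinb9b* was then higher by 1.00 and *Serpinb6a* by 0.53, and *Serpinb6b* no longer passed (0.34, adjusted p = 0.0758). *Gzmg* (3.69 ± 0.40), *Gzmd* (3.16 ± 0.40), *Gzme* (2.98 ± 0.24) and *Gzmf* (2.85 ± 0.18) were higher in the *Havcr2*-positive cells of the main gate, where 7 of 10 granzyme and perforin genes were higher and 2 lower.

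The relation of each serpin to *Gzmb* and *Gzma* was read in cells of at least 3000 UMIs, ordered within each library by their thinned granzyme UMIs. The cells were cut into 3 parts as equal as ties allowed, the lowest and highest parts were compared, and the full UMIs of their cells were summed. Ties left no middle part in CD8 T cells of Kaede-red by *Gzma*. *Serpinb9b* followed *Gzmb* more steeply than any other member. In NK cells it rose from 51.4, 43.9 and 26.4 CPM in the *Gzmb*-low part to 147, 118 and 81.8 CPM in the high part. CD8 T cells went from 1.64, 10.9 and 42.0 CPM to 38.3, 68.0 and 111 CPM. The log2 differences were 1.59 ± 0.08 in NK cells (3.01-fold, adjusted p = 1.53e-06) and 2.18 ± 0.33 in CD8 T cells (4.52-fold, adjusted p = 0.0037), where it was 2.96 without Kaede-red and 2.78 by DESeq2.

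*Serpinb9*, the inhibitor of granzyme B, rose with *Gzmb* by less. In NK cells it went from 828, 693 and 611 CPM to 1172, 1059.5 and 684 CPM, and in CD8 T cells from 198, 289.8 and 340.4 CPM to 429.5, 458 and 466 CPM. The log2 differences were 0.49 ± 0.08 in NK cells (adjusted p = 0.0044) and 0.71 ± 0.10 in CD8 T cells (adjusted p = 0.0026).

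In NK cells 12.1% of all genes tested passed between the *Gzmb* parts, and 3 of the 6 serpins did, all higher. Besides *Serpinb9b* and *Serpinb9* this was *Serpina3g* (0.42 ± 0.08, adjusted p = 0.0069), with 191, 160.2 and 197 CPM in the low and 273, 213 and 221 CPM in the high part. *Serpinb6b* (0.14 ± 0.07, adjusted p = 0.204), *Serpinb6a* (-0.30 ± 0.11, adjusted p = 0.102) and *Serpinb1a* (-0.51 ± 0.18, adjusted p = 0.0923) did not pass. Without Kaede-red *Serpinb6a* passed as lower (-0.50, adjusted p = 0.00261) and *Serpinb6b* as higher (0.17, adjusted p = 0.00109).

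In CD8 T cells 20.0% of all genes tested passed between the *Gzmb* parts, and 5 of the 6 serpins did, all higher. Besides *Serpinb9* and *Serpinb9b* these were *Serpinb6b* (0.47 ± 0.09, adjusted p = 0.0082), *Serpina3g* (0.39 ± 0.10, adjusted p = 0.0308) and *Serpinb6a* (0.38 ± 0.07, adjusted p = 0.0110). *Serpina3g* did not pass without Kaede-green 1 (0.24, adjusted p = 0.0704) or Kaede-green 2 (adjusted p = 0.0810), and was 0.61 without cycling cells. *Serpinb1a* did not pass (-0.18 ± 0.13, adjusted p = 0.373). Of 9 granzyme and perforin genes tested 8 were higher with *Gzmb* in CD8 T cells, and 3 were higher and 1 lower in NK cells.

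*Serpinb6a* had 20.3, 22.7 and 42.2 CPM in the *Gzmb*-low and 14.6, 14.9 and 37.3 CPM in the *Gzmb*-high part of NK cells. CD8 T cells had 46.3, 65.6 and 90.04 CPM in the low and 75.8, 80.8 and 109 CPM in the high part. The pooled level was thus lower in the *Gzmb*-high part of NK cells and higher in that of CD8 T cells in every library. Over single cells the relation was near 0, with a rho of 0.00378, -0.00858 and -0.0231 in NK cells and 0.0534, 0.00471 and 0.0372 in CD8 T cells. The test of that difference itself, NK minus CD8 T cells, gave -0.69 ± 0.25 (adjusted p = 0.314), and none of the 6 serpins passed it, with 0.195% of all genes passing (24 of 12305, and 1456 at an unadjusted p under 0.05). That test fitted a single library effect for both cell types, so it did not pair the parts of a cell type within a library. With the library as a block within each cell type, which does pair them, *Serpinb6a* passed (-0.69, adjusted p = 0.0222). That alternative was added after seeing the data. *Serpinb6a* also passed without Kaede-red (-0.93, adjusted p = 0.0148).

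Ordered by *Gzma*, *Serpinb9b* rose in NK cells and fell in CD8 T cells. In NK cells it went from 39.3, 43.5 and 43.2 CPM in the *Gzma*-low part to 192, 163 and 82.6 CPM in the high part (log2 difference 1.70 ± 0.21, adjusted p = 0.0062). In CD8 T cells the low group was the cells with no thinned *Gzma* UMI (1415, 1537 and 3386 cells). The high group (586, 1050 and 685 cells) was those with more than 1 such UMI in the KG+ libraries. In Kaede-red it was those with any such UMI. *Gzma* stood at 46.4, 99.3 and 27.6 CPM in the low and 3682, 3583 and 2224 CPM in the high group. B cells of the KG+ libraries had 493 and 241 CPM of *Gzma*, and the part of free RNA in this split was not tested. Between the low and high groups of CD8 T cells *Serpinb9b* went from 23.3, 38.7 and 78.8 CPM to 16.6, 31.1 and 52.1 CPM (-0.49 ± 0.08, adjusted p = 0.0044). The pooled level was thus higher in the *Gzma*-high part of NK cells and lower in that of CD8 T cells in all 3 libraries. Over single CD8 T cells this was not seen in the KG+ libraries, where Spearman's rho between *Serpinb9b* and *Gzma* was 0.00943 and 0.0161, and it was -0.0425 in Kaede-red. The test of the pooled difference, added after the pooled signs had been seen, gave 2.32 ± 0.58 (adjusted p = 0.163). Of all genes 0.565% passed it (70 of 12388, and 1016 at an unadjusted p under 0.05), none of them among the 6 serpins. As above, this test did not pair the parts of a cell type within a library. *Serpinb9b* passed with the library block within each cell type, which does pair them (2.18, adjusted p = 0.00328). It also passed with no filter on low counts (2.35, adjusted p = 0.00106) and without Kaede-red (2.44, adjusted p = 5.75e-05).

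*Serpinb6b*, the inhibitor of granzyme A, did not pass between the *Gzma* parts of either cell type. It stood at 557, 517 and 430.3 CPM in the low and 676, 676 and 422 CPM in the high part of NK cells (0.22 ± 0.10, adjusted p = 0.181), where Kaede-red did not follow the KG+ libraries. Among CD8 T cells it stood at 225, 285 and 308 CPM against 309, 342 and 322 CPM (0.24 ± 0.07, adjusted p = 0.0515), and it passed there under 5 alternatives, among them leaving out Kaede-red (0.33).

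In NK cells 10.9% of all genes tested passed between the *Gzma* parts, and 4 of the 6 serpins did. Besides *Serpinb9b*, *Serpinb9* was higher (0.60 ± 0.10, adjusted p = 0.0130), while *Serpinb6a* (-0.70 ± 0.14, adjusted p = 0.0228) and *Serpinb1a* (-1.36 ± 0.27, adjusted p = 0.0236) were lower. These calls depended on single libraries, although a fit with a library left out also has less power. The differences kept their sign in such fits. They ran from 1.43 to 2.05 for *Serpinb9b*, 0.54 to 0.66 for *Serpinb9*, -0.84 to -0.56 for *Serpinb6a* and -1.74 to -1.02 for *Serpinb1a*. Without Kaede-green 2 none of the 6 passed, with *Serpinb9b* at 1.60 (adjusted p = 0.135), and without Kaede-green 1 *Serpinb9* (adjusted p = 0.129) and *Serpinb1a* (adjusted p = 0.0641) did not pass. *Serpina3g* did not pass (-0.07 ± 0.08, adjusted p = 0.611). *Gzma*-low NK cells held more *Top2a*, at 49.1, 118 and 185 CPM against 14.3, 41.0 and 101 CPM in the high part. They were also deeper, with a median of 7951, 10685 and 20771.5 UMIs against 5053, 6598 and 12777. The part of depth in these calls was not tested.

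In CD8 T cells 14.8% of all genes tested passed between the *Gzma* parts, and 3 of the 6 serpins did. *Serpinb9* was higher (0.40 ± 0.09, adjusted p = 0.0175), from 260.5, 344 and 407 CPM to 443, 443 and 453 CPM, but not without Kaede-green 1 (0.25, adjusted p = 0.105) or without the cells of highest doublet score (0.22, adjusted p = 0.118). *Serpinb9b* and *Serpinb6a* (-0.45 ± 0.07, adjusted p = 0.0041) were lower, by -0.87 and -0.29 without the cells of highest doublet score. *Serpina3g* (0.09 ± 0.09, adjusted p = 0.564) and *Serpinb1a* (-0.33 ± 0.22, adjusted p = 0.342) did not pass. *Top2a* stood at 145, 220 and 265 CPM in the *Gzma*-low and 58.9, 119 and 201 CPM in the *Gzma*-high CD8 T cells, and without cycling cells the *Serpinb6a* difference was -0.44.

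**Figure D3:**
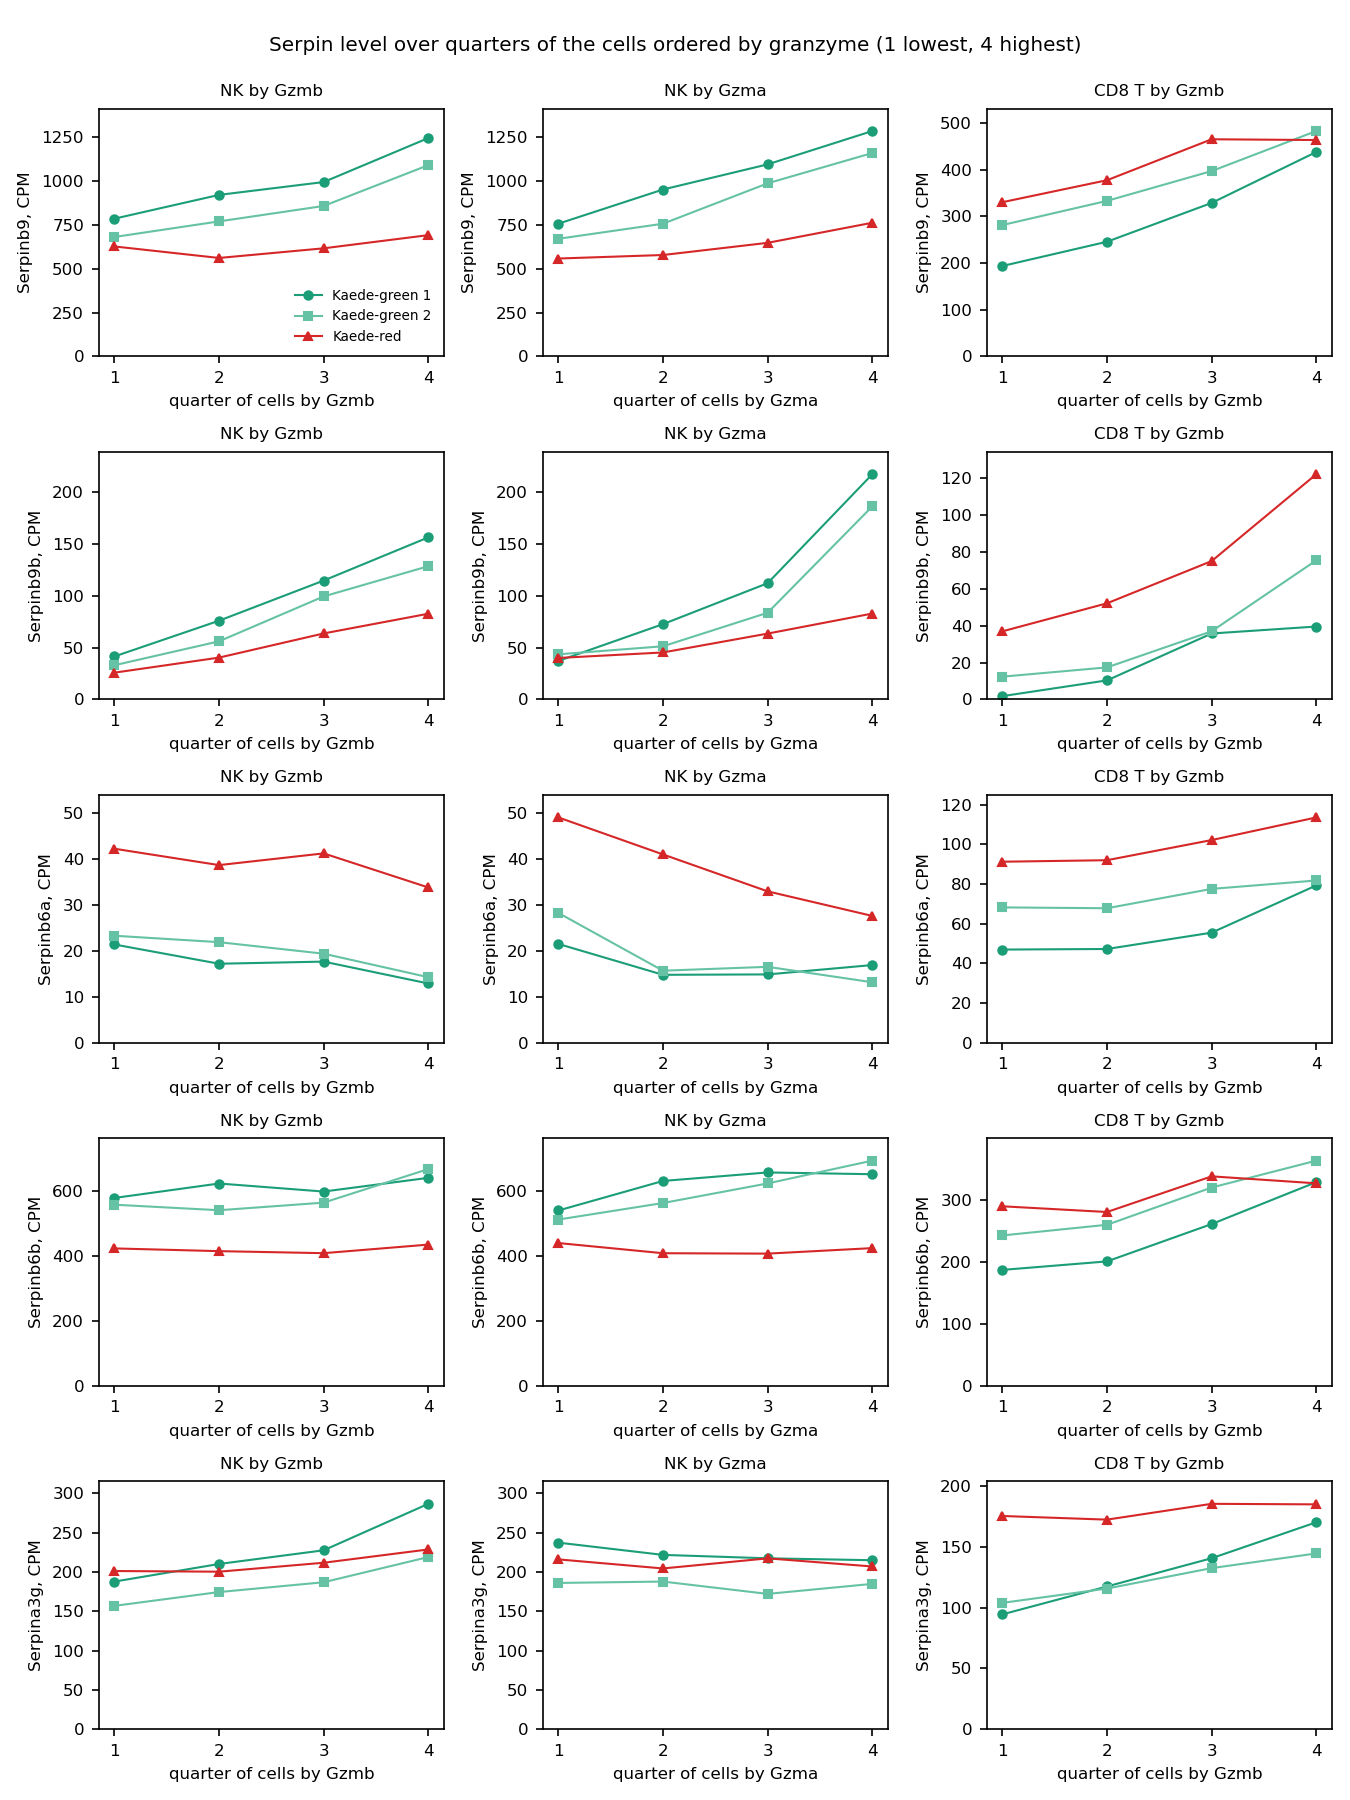
Level of 5 serpins (CPM, linear axes from 0) in 4 equal parts of the cells of each library ordered by thinned *Gzmb* or *Gzma* UMIs, for NK cells by both granzymes and CD8 T cells by *Gzmb*, with 1 line per library. *Serpinb9b* climbs in every library of all 3 columns, in NK cells by *Gzmb* from 41.6, 33.1 and 25.9 CPM to 157, 129 and 82.9 CPM, while *Serpinb6a* in NK cells does not climb.

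Over single thinned cells these relations were weak. Spearman's rho between a serpin and a granzyme did not exceed 0.233 in any library or cell type (2331 to 4071 cells, which share a library, its depth and free RNA). *Serpinb9* reached 0.198, 0.200 and 0.0839 with *Gzmb* in NK cells and 0.233, 0.187 and 0.118 in CD8 T cells.

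*Serpinb9b* was unevenly spread between cells of one type. Of all NK cells 16.7%, 18.2% and 16.7% had any UMI of it, and the cells that did held 4.31, 4.48 and 6.53 UMIs on average. The 5.69%, 5.53% and 6.88% of NK cells with at least 5 UMIs carried 68.9%, 71.1% and 84.2% of all its UMIs in NK cells. At 3000 UMIs per cell its variance over mean was 4.37, 3.77 and 2.53, whereas the median gene of like mean had 1.11, 1.09 and 1.04. Only 6 of 927, 15 of 1270 and 5 of 1642 such genes had a higher value.

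Among CD8 T cells the variance over mean of *Serpinb9b* was 2.82, 2.90 and 3.52, and the 7.05% of Kaede-red CD8 T cells with at least 5 UMIs carried 89.5% of its UMIs there. *Serpinb6a* was spread nearly as evenly as genes of like mean, at 1.06, 1.07 and 1.14 in NK cells against a median of 1.05, 1.05 and 1.04. *Serpinb9* lay between, at 2.54, 2.34 and 2.01 in NK cells, with 11 UMIs in the median Kaede-red NK cell. *Serpinb1a* was rare and clumped, with 2.37 to 2.67 in NK cells and 3.14 to 3.37 in CD8 T cells. These values rested on few cells. The top cell of a library held 6.70% to 18.7% of its UMIs in NK cells and 5.04% to 20.1% in CD8 T cells.

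NK cells with *Serpinb9b* after thinning (325, 294 and 266 cells) held more granule transcript than the rest. *Gzma* was 1.49, 1.60 and 1.46 times higher per thinned cell, *Gzmb* 1.45, 1.35 and 1.28 times and *Prf1*, which encodes perforin, 1.61, 1.65 and 1.39 times. *Serpinb9* was 1.11, 1.09 and 0.989 times the level in the other NK cells. In CD8 T cells (44, 139 and 307 positive cells) *Prf1* was 5.77, 2.62 and 1.89 times higher, *Serpinb6b* 2.22, 1.87 and 1.51 times and *Serpinb9* 2.02, 1.25 and 1.27 times. *Gzma* was 1.44, 1.08 and 0.579 times, so the libraries differed in direction. These ratios are descriptions over cells that share a library, with no test.

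**Figure D4:**
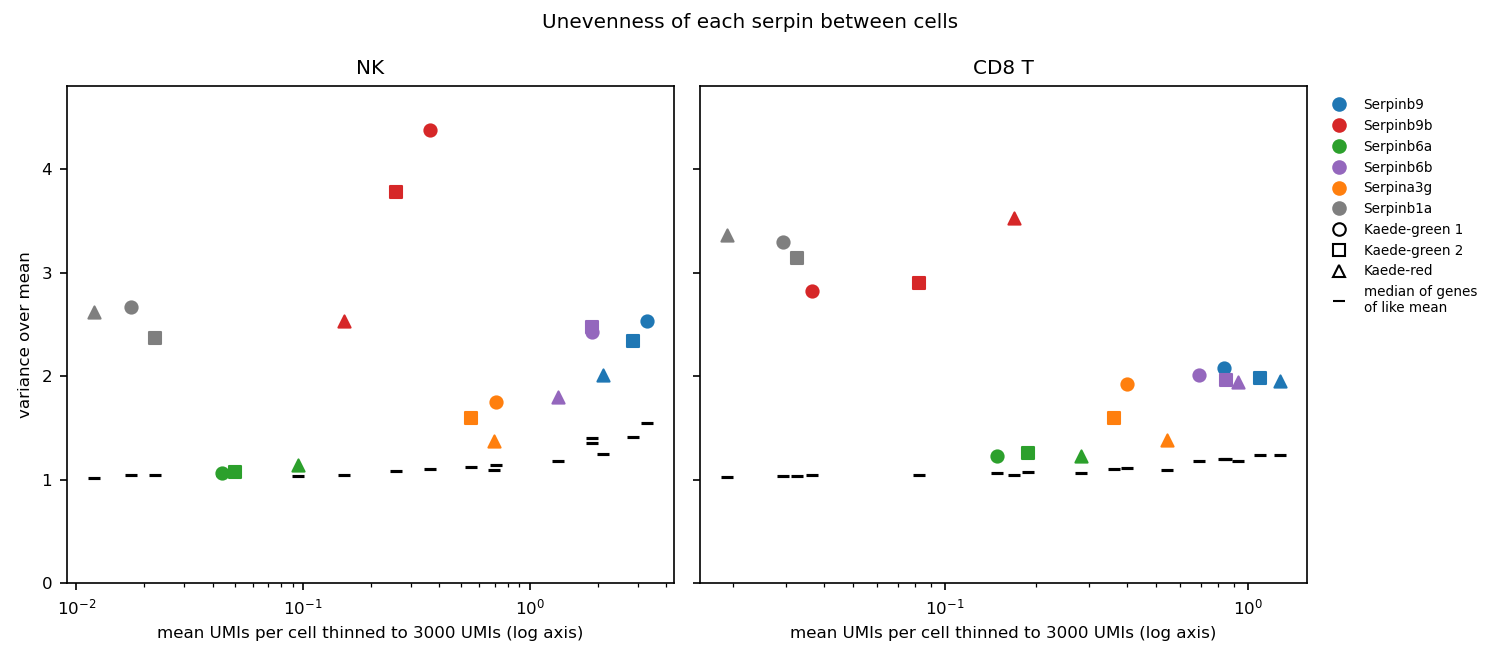
Variance over mean of thinned UMIs per cell against the mean (log axis) for each serpin in NK and CD8 T cells, with 1 point per library (color for the serpin, shape for the library) and dashes for the median of genes of like mean. *Serpinb9b* lies at 2.53 to 4.37 in NK cells, while *Serpinb6a* lies at 1.06 to 1.14.

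With 1 Kaede-red library no test between colors was possible, and KR+ levels were set beside the gap between the KG+ libraries. NK cells of Kaede-red had less *Serpinb9*, *Serpinb9b* and *Serpinb6b* and more *Serpinb6a* than either KG+ library. The log2 ratio of KR+ to Kaede-green 1 and to Kaede-green 2 was -0.64 and -0.43 for *Serpinb9*, -0.76 and -0.49 for *Serpinb9b*, -0.53 and -0.46 for *Serpinb6b* and 1.13 and 0.96 for *Serpinb6a*. For *Serpinb6a* the 95% counting intervals were 0.97 to 1.30 and 0.83 to 1.1, and the KG+ libraries differed by 0.17. *Serpina3g* was -0.09 and 0.21 and so had no common direction.

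In NK cells 5 serpins had both ratios of the same sign and larger than the gap between the KG+ libraries, but so did 66% of 7846 genes of at least 5 CPM, so the count is near the background. *Serpinb1a* was among the 5 but stood at 3.60 CPM in Kaede-red, so it was outside that background. The ratios of *Serpinb9*, *Serpinb6a* and *Serpinb6b* were smaller within *Gzmd*-high NK cells, of which the KG+ libraries held 30 and 71. There *Serpinb9* ratios were -0.14 and 0.03 and *Serpinb6a* ratios 0.26 and 0.07, where 2 serpins exceeded the gap against 25.9% of genes. These 2 were *Serpinb6b* and *Serpinb1a*, the latter again outside the background at 3.57 CPM in Kaede-red. *Serpinb9b* and *Serpina3g* ratios were smaller there against a single KG+ library only. Those of *Serpinb1a* were larger, at -1.51 and -1.07 against -0.58 and -0.91 in all NK cells. Within *Gzmd*-negative NK cells *Serpinb9* stayed at -0.50 and -0.30 and *Serpinb6a* at 0.69 and 0.68, and 4 serpins exceeded the gap against 62.7% of genes.

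The *Serpinb9b* ratio in CD8 T cells had the opposite sign. It was 1.76 and 1.05 in KR+ over KG+ cells (95% counting intervals 1.63 to 1.88 and 0.97 to 1.13), while the KG+ libraries differed by 0.71. It was 0.91 and 0.69 within *Havcr2*-positive and 2.09 and 1.24 within *Havcr2*-negative cells. *Serpinb6a* was 0.81 and 0.44 and *Serpina3g* 0.46 and 0.53, and these 3 serpins exceeded the gap against 51.4% of genes. *Serpinb9* (0.46 and 0.15) and *Serpinb6b* (0.34 and 0.06) did not. In Treg 1 serpin exceeded the gap, *Serpina3g* at 0.52 and 0.60, against 42.3% of genes. In pDC *Serpinb6b* was 1.81 and 1.46, from 168 UMIs in 75 KR+ cells.

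**Figure D5:**
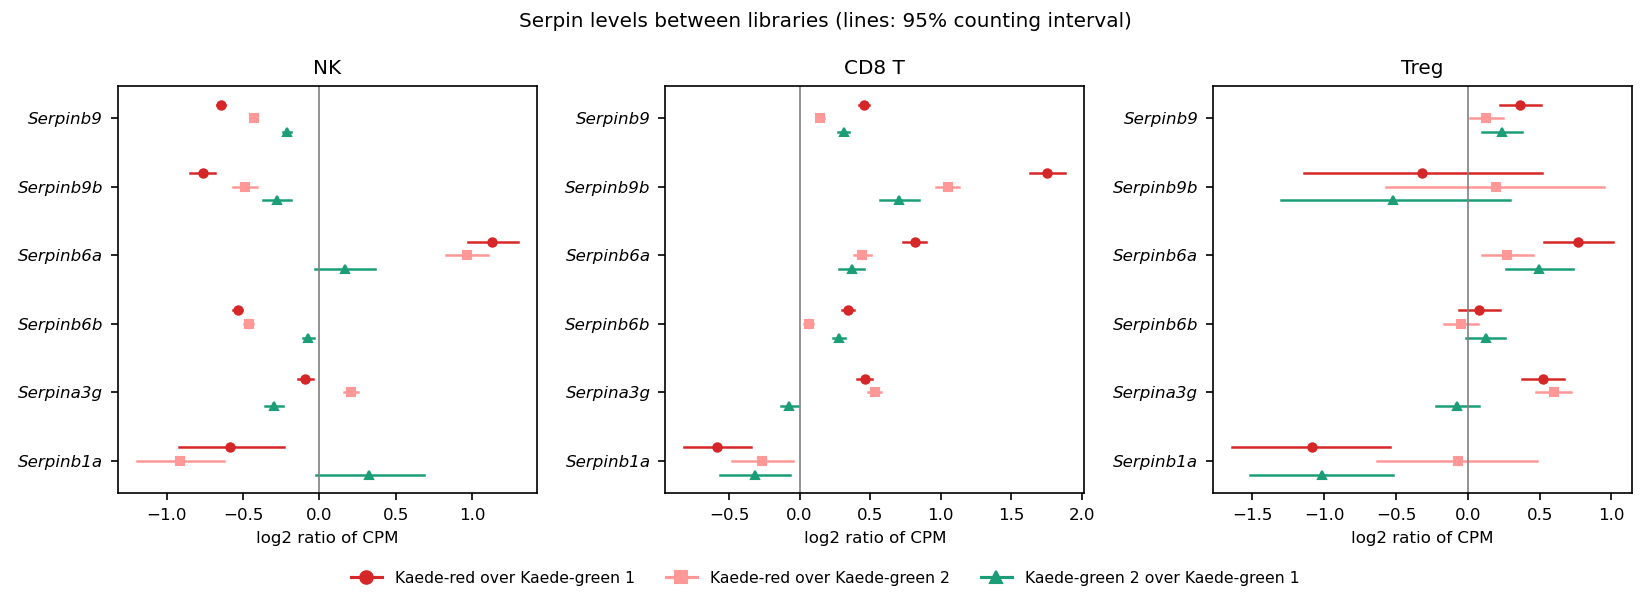
log2 ratio of CPM between libraries for each serpin in NK cells, CD8 T cells and Treg, with 95% counting intervals (Kaede-red over each KG+ library, and Kaede-green 2 over Kaede-green 1). In NK cells *Serpinb9*, *Serpinb9b* and *Serpinb6b* lie below 0 and *Serpinb6a* above it for both ratios, and in CD8 T cells *Serpinb9b* lies at 1.76 and 1.05.

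The rest of the serpin family was scarce in these cells. Unlike above, CPM in this paragraph was taken over the UMIs of all 3 libraries together, so it has no spread between libraries. Of 31 other clade B and A3 serpins 20 had 0 UMIs in the gated groups and 1, *Serpina3f*, reached 5 CPM. *Serpina3f* was higher with *Havcr2* (log2 difference 0.69 ± 0.10) and with *Gzmb* in CD8 T cells (0.65 ± 0.11) and NK cells (0.46 ± 0.12). Some of its sequence is shared with *Serpina3g*, so these genes may not be fully told apart. Of 25 serpins of other clades 12 had 0 UMIs and 5 reached 5 CPM. *Serpine2*, which encodes an extracellular inhibitor of thrombin and plasminogen activators, stood at 66 CPM in CD8 T cells and was higher in *Havcr2*-positive CD8 T cells (1.59 ± 0.11, adjusted p = 7.2e-05). It was also higher with *Gzmb* in CD8 T cells (1.06 ± 0.06) and lower with *Gzmb* in NK cells (-1.01 ± 0.15).

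Granule loading genes and cathepsins gave smaller counts. *Nkg7* was higher with *Gzmb* in NK cells (0.60 ± 0.07) and CD8 T cells (0.58 ± 0.06) and with *Havcr2* (0.41 ± 0.05), but lower in *Gzmd*-high NK cells (-0.52 ± 0.11). *Cst7*, which encodes cystatin F, an inhibitor of the cathepsins that activate granzymes, was higher in *Gzmd*-high NK cells (0.67 ± 0.12). Of the 8 granule and loading genes 2 were higher and 1 lower in that comparison, and 5 were higher and 1 lower with *Havcr2*. Of 10 cathepsins and cystatins 1 was higher and 4 lower in *Gzmd*-high NK cells, *Ctsh* by -2.75 ± 0.46, and 4 were higher and 3 lower with *Havcr2*, *Ctsd* by 0.74 ± 0.06.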

How the data were processed

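Single-cell 3′ RNA libraries of sorted tumor leukocytes were measured in 3 samples, 2 labelled Kaede-green and 1 labelled Kaede-red. Per the labels, TER119+ cells and CD11b+ NK1.1- myeloid cells were gated out. The authors deposited filtered matrices of UMI counts per gene and cell; the submitters' processing notes name mm10 and Cell Ranger 6.1.2, while the file headers name Cell Ranger 6.0.1. The labels name MC38-Ova tumors and an isotype control.

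A cell was kept if it had from 1000 to 6000 detected genes and if less than 7.5% of its UMIs were mitochondrial. Kept cells were gated by raw UMIs, and cells in several gates were left out. UMIs were summed per library and group. Sums were tested with edgeR 4.0.16 (R 4.3.3, TMM, filterByExpr, quasi-likelihood test, library as block), with Benjamini-Hochberg adjustment over all genes tested except the gate genes, at 0.05. Where 2 groups were compared, they came from the same library, so the block pairs them by construction. The tests of a difference between cell types fitted a single library effect for both, which does not pair the parts within a cell type. SE was the difference over the square root of F. Cells were thinned to 3000 UMIs with a fixed seed for granzyme parts, detection and spread. Doublets were scored with Scrublet and left in. Counting intervals are exact at 95% and cover counting error only. With a single Kaede-red library, no test was made between colors. Genes named beyond the members are those past the threshold with the largest change in lists of granzymes, granule genes, cathepsins and other serpins, at most 4 per list and comparison, and the 3 genes most like each member. The members and lists were chosen with earlier results of these data known. Scripts were tested on simulated data. Alternatives included DESeq2 1.42.0, other filters and thinning, no block, and leaving out each library. The labels do not say that libraries came from separate animals, so p-values measure only the spread between these libraries. Python 3.11.15, scanpy 1.11.5 and scipy 1.17.1 were used.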

Additional observations from a re-analysis of the deposited data

Results flagged for a closer look

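The Gzmb difference of *Serpinb6a* in pooled CPM had opposite signs in NK and CD8 T cells in every library, although Spearman's rho over single cells was between -0.0231 and 0.0534, and the difference between the cell types was -0.69 on the log2 scale (adjusted p = 0.314 by edgeR's quasi-likelihood test). It passed without Kaede-red (-0.93, adjusted p = 0.0148) and with a library block within each cell type (adjusted p = 0.0222). Only the latter fit pairs the parts of a cell type within a library.

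The Gzma difference of *Serpinb9b* in pooled CPM was positive in NK cells and negative in CD8 T cells in every library, although rho over single CD8 T cells was 0.00943 and 0.0161 in the KG+ libraries, and the difference between the cell types was 2.32 (adjusted p = 0.163). It passed under 3 of the alternatives described above, which were no filter on low counts, a library block within each cell type and leaving out Kaede-red. Only the fit with the block within each cell type pairs the parts of a cell type within a library.

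B cells entered no comparison, and *Serpinb1a* stood there at 172.7 CPM in Kaede-green 1 (167 cells) and 208.6 CPM in Kaede-green 2 (105 cells), against 5.38 and 6.76 CPM in NK cells of the same libraries. Kaede-red held 3 B cells and 2 UMIs of it.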

How the results depend on the processing

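Over 11 comparisons 38 calls were made in 66 tests of the members. The share of all genes tested that passed ran from 0.195% to 44.4% between these comparisons. Of the 38 calls of members, 25 held under every alternative but the fit without the library block, 13 held without that block, and no called value changed sign. Without the block the number of members called was 0 by Havcr2 in CD8 T cells, 3 for Treg, and 0 for each of the Gzmb and Gzma comparisons of NK and CD8 T cells. A library block within each cell type called 1 member in the Gzmb and 1 in the Gzma difference between cell types, and no filter on low counts called 1 in the latter. Leaving out one library gave 1 to 3 called members by Gzmd, 5 to 6 by Havcr2, 4 to 5 between NK and CD8 T cells, 3 to 5 for Treg, 5 for pDC, 3 to 5 by Gzmb and 0 to 5 by Gzma in NK cells, 4 to 5 by Gzmb and 2 to 4 by Gzma in CD8 T cells, 0 to 1 in the Gzmb and 0 to 2 in the Gzma difference between cell types. The share of all genes passing under these alternatives is not given here, so a general loss of calls cannot be told apart from one of the members. Of 822 values under alternatives 17 turned sign, none of them called. *Serpinb1a* by Gzmd in NK cells was -0.0269 to 0.4231 when a library was left out (lowest without Kaede-green 1), -0.0045 without the highest Scrublet scores and -0.1373 without cycling cells, and by Gzmb in CD8 T cells 0.0692 between 2 equal parts. *Serpina3g* by Gzma in CD8 T cells was -0.0482 to 0.2298 when a library was left out (lowest without Kaede-green 1). In the Gzmb difference between cell types it was -0.0244 to 0.1071 (lowest without Kaede-red) and -0.0469 without cycling cells, and in the Gzma difference -0.2728 to 0.0171 (highest without Kaede-green 1). *Serpinb6b* in the Gzma difference was -0.0112 with DESeq2 size factors, -0.0111 with DESeq2, -0.0091 without the block, -0.0165 with the block within each cell type, -0.0541 to 0.0623 when a library was left out, -0.0113 without cycling cells, -0.0675 at 2000 UMIs and -0.0372 between 2 equal parts. The causes were not tested. The cycling, within-type block and Gzma difference alternatives were chosen after seeing the data. Depth limited *Serpinb1a*, with 8 UMIs in the *Gzmd*-high NK cells of Kaede-green 1, and *Serpinb9b* in pDC, with 0, 9 and 2 UMIs.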
